A study of Mus musculus with 6 samples.

Results

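The genes described here are 9 markers by which periosteal and skeletal progenitor cells are recognised: Thy1, Nt5e, Eng, Ly6a, Cd200, Lepr, Nes, Mcam and Postn. They were taken by gene symbol from the 18002 genes listed in the count and FPKM tables, and all 9 were present and passed the filter on low counts. Primary cells of the mouse jawbone periosteum, the cell layer on the outer face of the bone, had been kept for 48 h as spheroids (labelled aggregate, 3 libraries) or as a flat monolayer (3 libraries), and their total RNA was sequenced. No other treatment, genotype or allele is named for either group, and no source used here gives strain, sex, age, passage or the number of animals. Total counts ranged from 21701000 to 21889100 per library. Whether the libraries within a format stem from separate cultures is not stated in the labels, so the p-values measure only the spread between these libraries, which may be technical.

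Skeletal progenitors have no single defining antigen and are sorted by combinations of such markers. Thy1 (CD90) and Ly6a (Sca-1, known as a stem cell marker in the mouse) are small proteins held to the outer membrane by a lipid anchor, as is Nt5e (CD73), an enzyme that releases adenosine from AMP outside the cell. Eng (CD105) is a co-receptor for TGF-beta and BMP ligands. Cd200 is a membrane glycoprotein that restrains myeloid cells through its receptor and is used, in mice, to sort skeletal stem cells. Lepr, the leptin receptor, marks stromal cells of adult mouse bone marrow. Mcam (CD146) is an adhesion molecule of cells around and inside vessels. Nes (nestin) is an intermediate filament protein inside the cell, and Postn (periostin) is a secreted matrix protein named after the periosteum, so these 2 are progenitor markers but not surface antigens.

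Relative to monolayers, spheroids held more mRNA of Cd200 (21.6-fold), Nes (7.42-fold), Nt5e (4.39-fold), Mcam (3.80-fold) and Postn (2.23-fold). They held less of Ly6a (2.22-fold lower), Lepr (1.63-fold lower) and Thy1 (1.19-fold lower), and Eng did not pass the test. Thus 5 of 9 rose and 3 fell in edgeR's quasi-likelihood test at a Benjamini-Hochberg adjusted p below 0.05. Of all 13708 tested genes 74.2% passed that threshold, 37.1% in each direction, so passing it is common in this comparison. Changes of at least 2-fold, found for 19.4% of tested genes, occurred in 6 of 9 markers, 5 higher against 12.7% of tested genes and 1 lower against 6.67%. CPM values, which are read counts scaled to the size of the library with TMM factors, did not overlap between the formats for 8 of 9 markers and for 75.8% of tested genes. In bulk RNA, fewer cells of a type and less RNA per cell cannot be told apart.

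**Figure D1:**
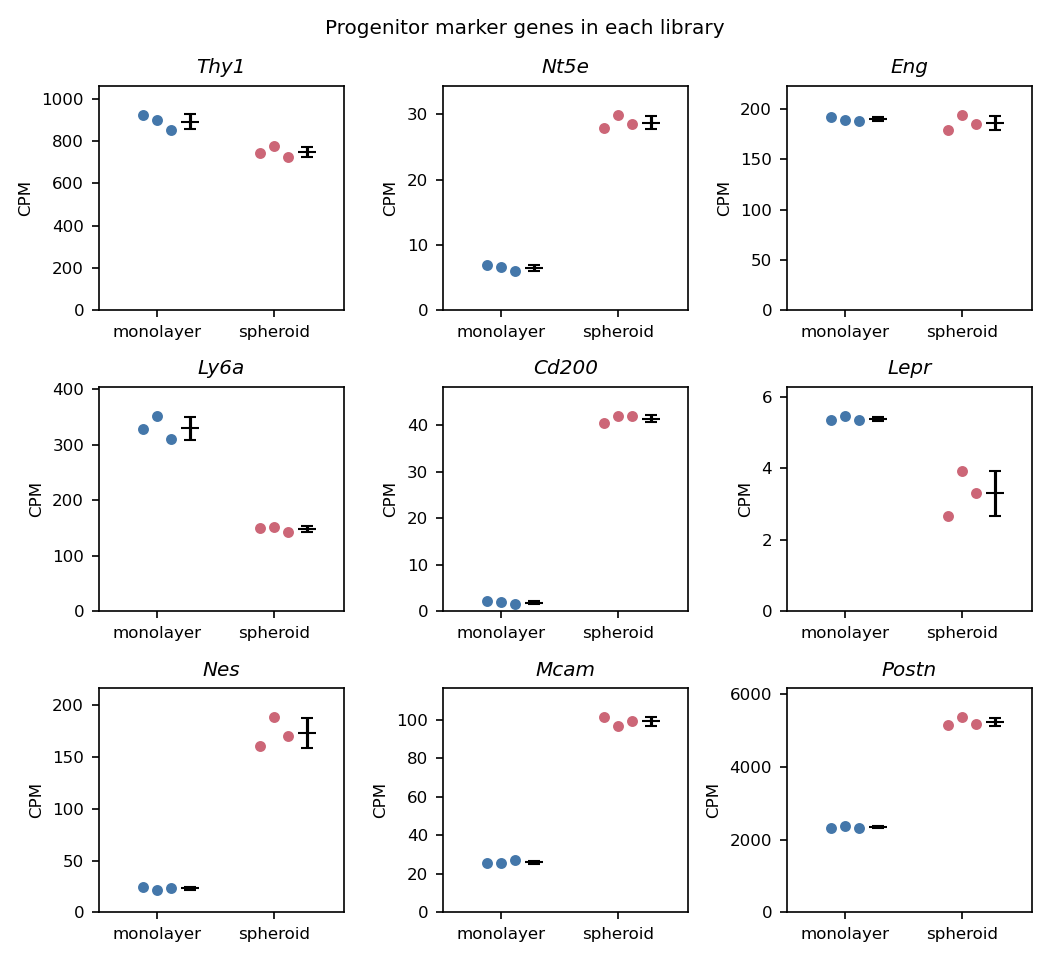
CPM of each marker gene in the 3 monolayer libraries (blue) and the 3 spheroid libraries (red), each panel on its own linear axis from 0, with the mean and SD beside the points in black. Cd200, Nes, Nt5e, Mcam and Postn sit higher in every spheroid library, Ly6a, Lepr and Thy1 lower, and the Eng values overlap between formats.

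Sequence just upstream of the annotated starts is shown for the 3 markers with the largest changes, which all rose. It is also shown for Eng, which did not pass, and for no marker that fell. The windows are the 250 bases before the start in RefSeq GRCm38.p6, 5′ to 3′ on the gene's strand, and 7 of the 9 markers had an entry, with 9 windows in all. Capitals mark the GC box (GGGCGG or its complement) and, in the Cd200 window, the TEAD motif (GGAATG).
Cd200 (chr16:45409054-45409303, minus strand): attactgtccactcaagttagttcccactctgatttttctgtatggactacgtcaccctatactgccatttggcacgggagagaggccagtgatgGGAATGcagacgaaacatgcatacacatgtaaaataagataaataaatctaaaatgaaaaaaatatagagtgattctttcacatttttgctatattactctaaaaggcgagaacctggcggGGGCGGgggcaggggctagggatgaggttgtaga
Nes (chr3:87970843-87971092, plus strand): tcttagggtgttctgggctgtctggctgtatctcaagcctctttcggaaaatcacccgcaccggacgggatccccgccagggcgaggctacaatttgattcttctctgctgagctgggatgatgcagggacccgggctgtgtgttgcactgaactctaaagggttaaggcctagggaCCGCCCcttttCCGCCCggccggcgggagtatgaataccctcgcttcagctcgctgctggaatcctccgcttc
Nt5e (chr9:88327359-88327608, plus strand): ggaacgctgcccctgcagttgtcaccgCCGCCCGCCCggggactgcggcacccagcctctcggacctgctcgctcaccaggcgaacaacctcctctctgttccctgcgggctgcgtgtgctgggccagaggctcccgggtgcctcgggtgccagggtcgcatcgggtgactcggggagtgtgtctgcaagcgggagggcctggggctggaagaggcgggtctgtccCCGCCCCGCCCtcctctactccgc
Eng (chr2:32646345-32646594, plus strand): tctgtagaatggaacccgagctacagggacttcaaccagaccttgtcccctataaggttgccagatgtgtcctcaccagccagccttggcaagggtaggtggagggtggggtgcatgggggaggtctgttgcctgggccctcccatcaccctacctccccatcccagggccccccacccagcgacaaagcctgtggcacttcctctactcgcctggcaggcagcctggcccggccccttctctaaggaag
On both strands, with overlapping matches counted, the GC box occurred 1 time for Cd200, 2 times for Nes, 4 times for Nt5e, 5 times for Mcam (chr9:44134408-44134657) and 0 times for Eng. It also occurred 0 times in both windows of Postn, which rose, and 1 time in 1 of the 2 windows of Lepr, which fell. It was present in 32.7% of all windows of this length. The NF-kB motif and the CArG box, which SRF binds, were searched by their usual consensus and occurred in 0 of the 9 windows, against 3.9% and 1.47% of all windows. The AP-1 motif (TGANTCA) also occurred in 0 of the 9, against 6.75% of all windows, and the TEAD motif, present in 12.6%, occurred in the Cd200 window and in no other of the 9. The shown windows differed in base composition, from 42.4% G and C for Cd200 to 72% for Nt5e, with a median of 52.4% over all windows. These are matches of letters in 1 short window per start and say nothing of factor binding.

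The first group, the classical antigens of cultured stromal cells, split in direction. Thy1 (gene ID 21838, chromosome 9, 44043384 to 44048579, GRCm38.p6) had 922, 899 and 853 CPM in the 3 monolayers and 743, 775 and 726 CPM in the 3 spheroids. The formats did not overlap, but the gap between them was small (log2 fold change -0.25 ± 0.03, SE, edgeR adjusted p = 6.92e-09). Thy1 stayed an abundant transcript, at percentile 99.2 of listed genes by FPKM in both formats. Nt5e (gene ID 23959, chromosome 9, 88327609 to 88372089) had 6.93, 6.66 and 6.04 CPM in monolayers and 27.9, 29.8 and 28.4 CPM in spheroids. Every spheroid library was higher than every monolayer library, and the log2 fold change was 2.13 ± 0.07 (edgeR adjusted p = 1.72e-22). Eng (gene ID 13805, chromosome 2, 32646595 to 32682669) had 191, 189 and 188 CPM in monolayers and 179, 193 and 185 CPM in spheroids. Its formats overlapped, with spheroids on both sides of the monolayers (log2 fold change -0.03 ± 0.03, edgeR adjusted p = 0.449). In the annotation the 3′ end of Eng overlaps Fpgs on the opposite strand, and no source used here says whether strand was used in counting. Within a library, the FPKM ratio of Nt5e to Eng went from 0.0332 ± 0.00194 in monolayers to 0.148 ± 0.000943 in spheroids (SD, n = 3).

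The second group are markers used to divide progenitors into subsets, and here the extremes lie. Cd200 (gene ID 17470, chromosome 16, 45382111 to 45409060, minus strand) had 2.19, 1.99 and 1.57 CPM in monolayers and 40.5, 41.9 and 41.9 CPM in spheroids. The 3 monolayers together held 124 reads of it and the 3 spheroids 2732, and the log2 fold change was 4.43 ± 0.09 (edgeR adjusted p = 7.27e-29). With so few monolayer reads, this SE understates the counting error. Cd200 thereby moved from the 35.6 to the 78.3 percentile of listed genes by FPKM. Ly6a (gene ID 110454, chromosome 15, 74994877 to 74998031, minus strand) had 328, 352 and 311 CPM in monolayers and 151, 152 and 143 CPM in spheroids. Every spheroid library was lower (log2 fold change -1.15 ± 0.04, edgeR adjusted p = 4.55e-16), yet Ly6a remained at percentile 97.8 of listed genes by FPKM. Ly6a has close paralogs in the Ly6 family, so reads can be shared between them and its level is uncertain. Lepr (gene ID 16847, chromosome 4, 101717137 to 101815352) was low throughout, with 5.35, 5.46 and 5.35 CPM in monolayers and 2.67, 3.93 and 3.31 CPM in spheroids. The spheroids were lower without overlap (log2 fold change -0.70 ± 0.13, edgeR adjusted p = 2.52e-05) but scattered, with a coefficient of variation of 19.1%, where counting alone gives 11.7% at their mean of 72.7 reads. Because Ly6a fell while Cd200 rose, the FPKM ratio of Ly6a to Cd200 was 434 ± 66.1 in monolayers and 8.89 ± 0.376 in spheroids (SD, n = 3).

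The third group are markers of cells at vessels, and both rose. Nes (gene ID 18008, chromosome 3, 87971093 to 87980451) had 24.4, 21.7 and 23.9 CPM in monolayers and 161, 189 and 171 CPM in spheroids. The formats were far apart (log2 fold change 2.89 ± 0.07, edgeR adjusted p = 3.45e-11), although the spheroid coefficient of variation of 8.13% exceeded the 1.62% of counting alone. Mcam (gene ID 84004, chromosome 9, 44134658 to 44142727) had 25.5, 25.8 and 27.1 CPM in monolayers and 101, 97 and 99.4 CPM in spheroids. Its libraries scattered little beyond counting, and the log2 fold change was 1.93 ± 0.04 (edgeR adjusted p = 8.88e-28). Nes and Mcam had like CPM values in monolayers, but by FPKM, which accounts for length, the ratio of Nes to Mcam was 0.415 ± 0.0256 in monolayers and 0.815 ± 0.0845 in spheroids.

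Postn, the matrix marker (gene ID 50706, chromosome 3, 54359267 to 54391041), had the highest FPKM of the 9. It had 2335, 2371 and 2328 CPM in monolayers and 5159, 5367 and 5183 CPM in spheroids. All spheroid libraries were higher, with little scatter (log2 fold change 1.16 ± 0.03, edgeR adjusted p = 2.29e-27). The 9 markers together summed to 3743 to 3873 CPM in monolayers and 6564 to 6849 CPM in spheroids, and most of these reads were from Postn.

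**Figure D2:**
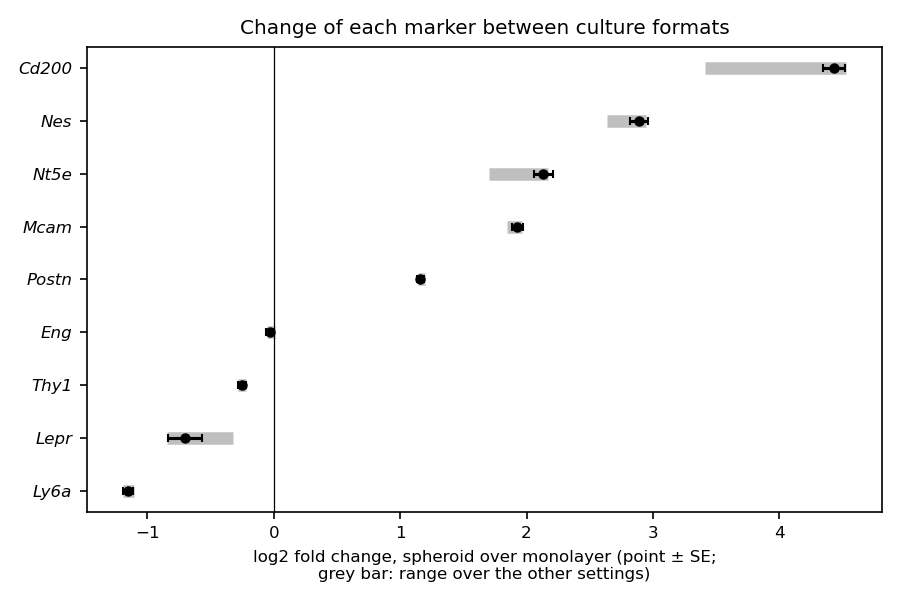
Log2 fold change of each marker in spheroids over monolayers, with points and black bars for the estimate ± SE and grey bars for the range over the other settings tried. Cd200 is highest at 4.43, Ly6a lowest at -1.15, and only the range of Eng includes 0.

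Ordered by FPKM, which allows comparison between genes, the monolayer series ran from Postn (744 ± 7.12, SD, n = 3) through Thy1 (522 ± 18.6), Ly6a (358 ± 21.6), Eng (55.1 ± 0.365), Mcam (9.15 ± 0.332), Nes (3.80 ± 0.232), Nt5e (1.83 ± 0.118) and Lepr (1.17 ± 0.0252) to Cd200 (0.84 ± 0.147). The spheroid series ran from Postn (1707 ± 27.7) through Thy1 (449 ± 12.9), Ly6a (165 ± 5.34), Eng (55.4 ± 1.77), Mcam (35.4 ± 0.997), Nes (28.8 ± 2.17), Cd200 (18.5 ± 0.259) and Nt5e (8.23 ± 0.237) to Lepr (0.73 ± 0.115). The first 6 places were held by the same genes in the same order in both formats. Cd200 went from the last place to place 7, passing Nt5e and Lepr. No neighbours in either order overlapped across their 3 libraries, and the closest pair, Mcam and Nes in spheroids, differed 1.23-fold. The span between Ly6a and the lower markers narrowed, since Ly6a was 6.5-fold above Eng in monolayers and 2.97-fold above it in spheroids. The mean transcript lengths that relate counts to FPKM differed by at most 0.533% between formats, which was for Mcam. Between single libraries they varied more for low markers. For Lepr they ran from 4354 to 4821 bases in spheroids and from 4500 to 4653 in monolayers. For Cd200 they ran from 2218 to 2286 bases in monolayers.

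**Figure D3:**
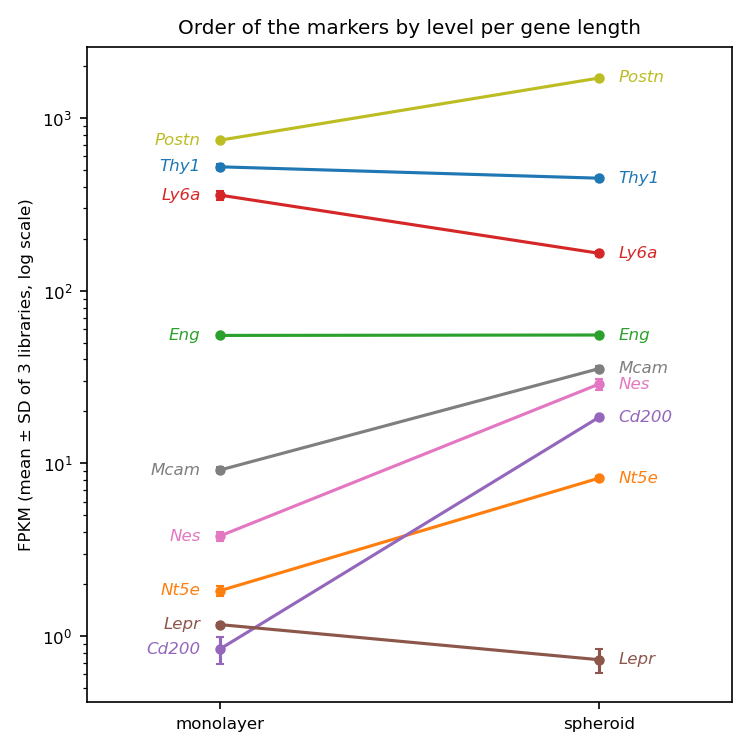
Mean FPKM ± SD of 3 libraries for each marker in monolayers (left) and spheroids (right), on a log axis. The lines of Cd200, Nt5e and Lepr cross at the bottom of the range, while the 6 most abundant markers keep their order.

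Genes whose profile over the 6 libraries was most like that of the 3 most changed markers were found by the root mean square difference of centred log2 CPM. For Cd200 they were Cacna1s, a calcium channel subunit of skeletal muscle (difference 0.06), and Chrng, a subunit of the fetal muscle acetylcholine receptor (0.09). For Nes they were C4b, a complement component (0.04), and Cd68, a lysosomal glycoprotein of macrophages (0.05). For Nt5e they were Ptprn, a protein of secretory granules, and Neurl1a, a ubiquitin ligase (both 0.03). With 2 formats this likeness rests mainly on the size of the difference between them.

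Other skeletal progenitor markers, a list of 30 genes that all passed the filter, also went in both directions. In edgeR's test 19 rose and 8 fell, a share passing of 90%, and the median log2 fold change was 0.32, against 74.2% and 0.00 over all tested genes. At least 2-fold, 9 rose and 2 fell, or 30% and 6.67%, against 12.7% and 6.67% of all tested genes. Without spheroid replicate 1 or spheroid replicate 3, the number that fell was 5. Pthlh, which encodes parathyroid hormone-related protein, rose by 5.04 ± 0.32 on the log2 scale, on 313 spheroid reads against 9 in monolayers, so its SE understates the counting error. Fap, the fibroblast activation protease, went from 13.7 ± 0.414 to 160.1 ± 6.05 CPM (log2 fold change 3.54 ± 0.05). Anxa2, the annexin A2 gene, fell from 1166 ± 7.04 to 549 ± 11.9 CPM (log2 fold change -1.09 ± 0.03), and Hhip, a hedgehog antagonist, stood at -1.41 ± 0.39 on 45 monolayer reads against 17 spheroid reads. Pdgfra, a receptor of stromal progenitors, rose by 1.55 ± 0.03, and Prrx1, a limb and craniofacial mesenchyme factor, by 0.16 ± 0.03. Cd44, the hyaluronan receptor, did not pass (218 ± 2.37 CPM in monolayers, 213 ± 6.59 CPM in spheroids, edgeR adjusted p = 0.315). The following genes, which in mouse tissues mark fibroblasts together with Ly6a, were named after their values were seen. Pi16 rose by 2.81 ± 0.09, Dpt by 2.40 ± 0.11 and Cd34 by 0.94 ± 0.05, while Ly6a itself fell. Dpp4, a further such gene, was counted 41 times in monolayers and 15 times in spheroids and did not pass the filter.

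**Figure D4:**
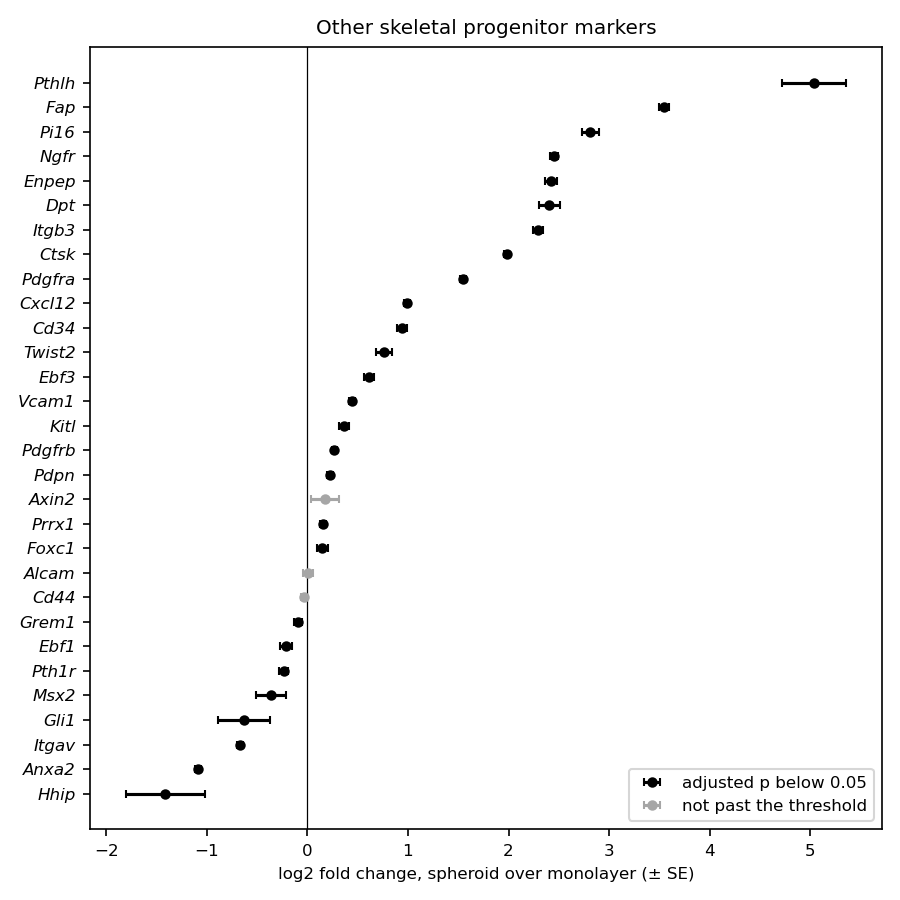
Log2 fold change ± SE of 30 other skeletal progenitor markers in spheroids over monolayers, in black where the adjusted p was below 0.05 and in grey otherwise. Values run from -1.41 for Hhip to 5.04 for Pthlh, and the grey points are Axin2, Alcam and Cd44.

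Genes that act with each marker were read from lists in the same fit, against 74.2% passing among all tested genes. Around Nt5e, 7 of 11 tested adenosine pathway genes rose and 2 fell. Enpp1, an ectoenzyme that forms AMP from ATP, rose from 9.82 ± 1.13 to 128.1 ± 3.46 CPM (log2 fold change 3.71 ± 0.05). The enzymes that clear adenosine were lower, with Ada, adenosine deaminase, at -1.44 ± 0.07 and Adk, adenosine kinase, at -0.72 ± 0.05. Adora1, an adenosine receptor gene, rose by 2.99 ± 0.54 on few reads, 5 in monolayers against 43 in spheroids. Entpd1 (CD39), which acts before Nt5e in the same chain, did not pass (2.75 ± 0.356 CPM in monolayers, 2.41 ± 0.340 CPM in spheroids, edgeR adjusted p = 0.322). Entpd2, another gene of the list, rose from 6.68 ± 0.564 to 12.2 ± 0.346 CPM (log2 fold change 0.87 ± 0.09). Slc29a1, an adenosine transporter gene of the list, rose from 86.8 ± 0.229 to 202 ± 2.13 CPM (log2 fold change 1.22 ± 0.03). Alpl, also of the list, did not pass (94.4 ± 2.86 CPM in monolayers, 94.6 ± 3.42 CPM in spheroids, edgeR adjusted p = 0.919). Entpd1, Entpd2, Slc29a1 and Alpl were named outside the rule for naming genes.

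Around Eng, 10 of 22 tested genes of its receptor complex and targets rose and 9 fell. The ligand gene Tgfb1 rose from 78.9 ± 0.854 to 539 ± 4.80 CPM (log2 fold change 2.77 ± 0.03), and Acvr2b, an activin receptor gene, by 1.49 ± 0.17. Acvr2a, another activin receptor gene, fell from 53.8 ± 2.19 to 23.7 ± 1.003 CPM (log2 fold change -1.18 ± 0.05). The other receptor genes of TGF-beta and BMP ligands in the list were named after their values were seen. Tgfbr1 rose by 1.25 ± 0.04, the co-receptor gene Tgfbr3 by 0.60 ± 0.04 and Bmpr2 by 0.23 ± 0.04, while Acvrl1 and Tgfbr2 did not pass (log2 fold changes -0.03 ± 0.05 and -0.03 ± 0.03, edgeR adjusted p = 0.584 and 0.310).

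Around Cd200, receptor mRNA was scarce. Cd200r1, which encodes the inhibitory receptor, was counted 13 times over all monolayers and 32 times over all spheroids and did not pass the filter. Of the 4 tested genes of that list 1 rose, Rasa1, a RAS regulator, by 0.38 ± 0.04. Without spheroid replicate 3, monolayer replicate 1 or monolayer replicate 3, the number that rose was 2. Around Lepr, 8 of 13 tested signalling genes rose and 4 fell, with Lepr itself counted among the 4. Ptpn1, a phosphatase that damps leptin signalling, stood at 1.23 ± 0.03, Irs2 at 0.72 ± 0.05, Lepr at -0.70 ± 0.13 and Irs1 at -0.69 ± 0.05.

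Around Thy1, 6 of 11 tested partners rose and 4 fell, or 2 fell when libraries were scaled by size alone, with or without the 10 most abundant genes, with DESeq2 and with limma on FPKM. Itgb3, an integrin subunit that binds Thy1 and periostin with Itgav, rose by 2.29 ± 0.05, while Itgav stood at -0.67 ± 0.03. The leukocyte integrin genes of that list, Itgam and Itgax, rose by 2.41 ± 0.20 and 3.88 ± 0.52, with 53 and 4 reads in monolayers. Around Postn, 5 of 14 partners rose and 8 fell. Tgfbi, its closest relative in sequence family, rose from 117.7 ± 3.88 to 450.4 ± 7.37 CPM (log2 fold change 1.94 ± 0.03). Lox, the collagen crosslinking enzyme, fell from 4848 ± 70.6 to 1451 ± 61.4 CPM (log2 fold change -1.74 ± 0.03), and Ccn3, a matricellular protein gene, stood at -3.44 ± 0.06.

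Around Mcam, 9 of 13 tested ligands and partners rose and 4 fell. Kdr, the VEGF receptor 2 gene, rose by 3.38 ± 0.08, Lgals1, the galectin-1 gene, stood at -0.99 ± 0.03 and Fzd4 at -1.06 ± 0.06. S100a8 rose by 4.16 ± 0.56, with 61 spheroid reads against 3 in monolayers. Among 11 tested intermediate filament genes, the family of Nes, 4 rose, Nes itself among them, and 7 fell. Des, the desmin gene of muscle, rose by 4.47 ± 0.04 beside Nes, whereas Vim, the general filament gene of mesenchymal cells, fell from 3659 ± 54.6 to 2112 ± 28.8 CPM (log2 fold change -0.79 ± 0.03). Prph and Krt19 stood at -2.49 ± 0.41 and -2.47 ± 0.45, with 57 and 56 reads in monolayers.

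Of the Ly6 family, 19 of 22 members were listed and 7 tested. Of these 5 fell, Ly6a itself among them, where 37.1% of all tested genes were lower. The number that fell was 3 with a minimum count of 50 and 7 without a filter. At least 2-fold, 2 fell, Ly6a and Ly6c1. Ly6c1, a close paralog of Ly6a, fell from 30.3 ± 3.07 to 7.44 ± 0.953 CPM (log2 fold change -2.02 ± 0.09). Ly6e rose by 0.22 ± 0.07 (edgeR adjusted p = 0.032), a call lost without spheroid replicate 2, spheroid replicate 3 or monolayer replicate 3. Ly6a is known to respond to interferon, so interferon-stimulated genes were added after the values were seen. Their summed level was 96.2, 169 and 210 CPM in monolayers and 96.4, 73.9 and 75.3 CPM in spheroids, so the formats touched, and their part in the fall of Ly6a was not tested. Of 9 tested members 3 fell, but the number that fell was 7 without monolayer replicate 1 and 1 without spheroid replicate 1, and all 3 calls were lost when any other library was left out.

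Stromal genes, which cells of the periosteum and other mesenchymal cells express, were read in the same fit. Their detection cannot check the tissue of origin or the format of the samples. All 10 were detected in every library, and they summed to 64307 to 65741 CPM in monolayers and 42125 to 44576 CPM in spheroids. Of these 10 genes 6 rose and 4 fell (median log2 change 0.21), and the lower sum goes with the collagen genes Col1a1 (28324 to 12884 CPM, monolayer to spheroid mean) and Col1a2 (20228 to 10042 CPM). Other cell types also express some of the 9 markers, such as endothelium (Eng, Mcam, Nes, Ly6a and Cd200), muscle precursors (Nes) and mural cells (Nes and Mcam). All 12 endothelial markers rose, with a summed level of 71.6 to 72.5 CPM in monolayers and 401 to 419 CPM in spheroids, among them Pecam1 by 2.70 ± 0.05. Of the 5 markers named here for endothelium, Cd200, Nes and Mcam rose, Eng did not pass and Ly6a fell. These 5 may not be all that endothelium expresses, and 37.1% of all tested genes passed in each direction. All 10 tested skeletal muscle markers of 12 rose, from 111 to 113 CPM up to 2003 to 2149 CPM, with Myod1 at 3.83 ± 0.09. Of 8 tested mural markers 7 rose and 1, Myh11, fell by 3.36 on the log2 scale. The mural sums were 234 to 238 CPM in monolayers and 418 to 439.9 CPM in spheroids. Higd1b had 0 reads in monolayers and 2 in spheroids. All 7 tested Schwann cell markers rose, from 22.2 to 24.6 CPM up to 111 to 115 CPM. The part of these cells in the changes of the 9 markers was not tested.

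Markers of blood, nerve and epithelial cells were read in the same way. Of 9 tested macrophage markers 8 rose, from 28.5 to 31 CPM up to 133 to 140.3 CPM, and Cd68 rose by 3.16 ± 0.11. All 6 tested blood lineage markers rose, from 8 to 8.88 CPM up to 24.2 to 26.6 CPM, with Ptprc, the pan-leukocyte gene CD45, at 1.07 ± 0.19. T cell markers, whose cells carry Thy1, summed to 3 to 4.67 CPM in monolayers and 3.84 to 5.31 CPM in spheroids, which overlap. Of 3 tested 1 rose, Lck, a call lost without spheroid replicate 1, spheroid replicate 3 or monolayer replicate 3, and without monolayer replicate 2 the number that rose was 2. Neuronal markers, whose cells carry Thy1 and Cd200, summed to 53.4 to 57.1 CPM in monolayers and 35.9 to 38 CPM in spheroids. Of 3 tested 2 were lower, and most of the sum was Tubb3, which went from 47.3 to 31.1 CPM. Snap25 and Rbfox3, which did not pass the filter, had 0 reads in monolayers and 19 and 5 in spheroids. Epithelial markers summed to 0.601 to 1.01 CPM in monolayers and 3.04 to 4.21 CPM in spheroids. The 1 tested member, Trp63, rose by 2.85 ± 0.24, with Krt14, Krt8 and Cldn4 at 0 reads in both formats. Osteoblast markers summed to 29153 to 29853 CPM in monolayers and 35125 to 36864 CPM in spheroids, with 6 of 10 higher and 3 lower. Spp1, the osteopontin gene, went from 870.1 to 23090 CPM and Col1a1 from 28324 to 12884 CPM, so the sum follows mainly these 2. In the same list Bglap, the osteocalcin gene, had 0 reads in monolayers and 120 in spheroids.

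**Figure D5:**
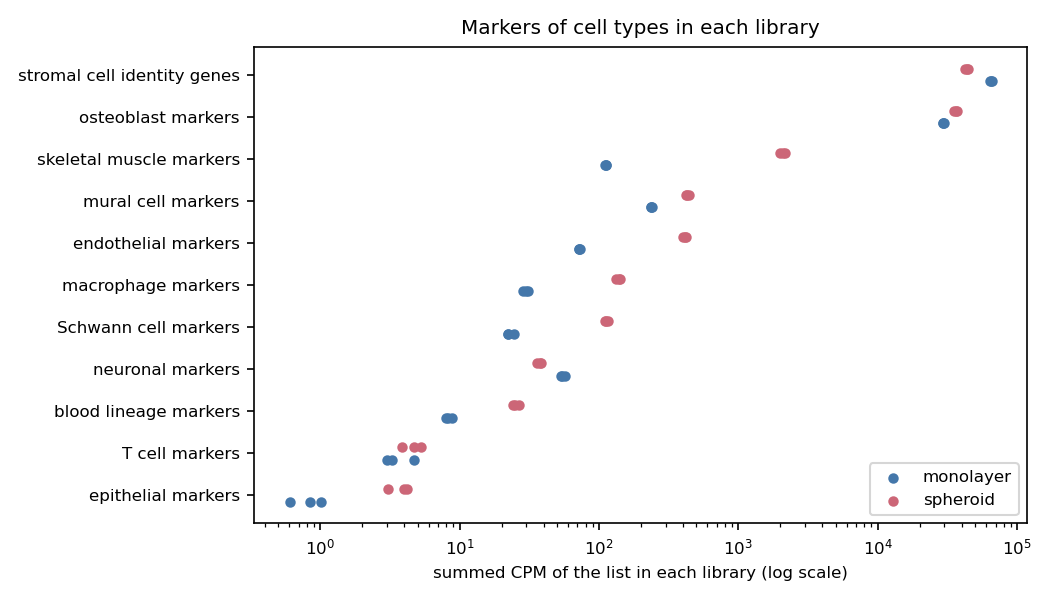
Summed CPM of the markers of each cell type in every library, on a log axis, with monolayers in blue and spheroids in red. Muscle and endothelial markers lie far apart between formats, T cell markers overlap, and the sums of the stromal and neuronal lists are lower in spheroids, although 6 of the 10 stromal genes rose.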

How the data were processed

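Total RNA was taken after 48 h of culture and sequenced on the DNBSEQ platform, per the labels' protocols. The submitters' processing notes name HISAT as a tool and GRCm38.p6 as the genome build. No source used here gives the counting tool, the annotation or any use of strand. Deposited by the authors were expected counts per gene, of which 28.9% to 30.6% in a library had decimals, and FPKM values, per the file headers. Counts were rounded to whole numbers, rows were filtered with filterByExpr (minimum count 10), and the 3 spheroid and 3 monolayer libraries, grouped by title, were compared with edgeR 4.0.16 (R 4.3.3) by robust quasi-likelihood tests with TMM factors and Benjamini-Hochberg adjustment over 13708 genes. SEs come from the F statistic. For large changes on few reads they understate the counting error, as for Cd200, Pthlh, Adora1, Itgax and S100a8. CPM values are counts over TMM-scaled library sizes. Replicate pairs differed beyond counting noise (mean chi-square ratio 1.90 to 2.91), so each library was counted once.

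The markers and lists were chosen with earlier results of these data known. The text names all 9 markers, in each list up to 2 genes with the largest rise and up to 2 with the largest fall past the threshold, as space allowed, a fixed panel and the 2 genes most like each of the 3 most changed markers. Lists are described by counts. Genes of the lists that the files do not hold were not analysed here. Not every gene this rule picks is reported here, and some genes outside it are named too. In simulated data with 13643 tested genes, this comparison recovered 74% of genes changed 1.2-fold and 96% of those changed 1.5-fold. There 50 genes were changed at each fold, all well counted, and every gene had the same dispersion. The shares thus do not give the power for genes with few reads or more scatter. Alternatives were other scalings and filters, DESeq2 1.42.0, limma-voom and limma 3.58.1 on log2(FPKM + 1) or log2(FPKM + 0.1), a replicate block and leaving out each library.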

Additional observations from a re-analysis of the deposited data

How the results depend on the processing

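Over 17 alternative settings, 8 of 9 markers kept their direction and their side of the threshold. The ranges of their log2 fold changes were 3.41 to 4.53 for Cd200, 2.64 to 2.94 for Nes, 1.71 to 2.17 for Nt5e, 1.84 to 1.96 for Mcam, 1.14 to 1.197 for Postn, -0.28 to -0.22 for Thy1, -0.85 to -0.33 for Lepr and -1.19 to -1.10 for Ly6a. The smallest changes of Cd200, Nes, Nt5e, Mcam and Lepr came from limma on log2(FPKM + 1), a scale that understates changes of low genes. Eng did not pass under any of them but changed sign, to 0.00722 with library size alone, 0.007238 with limma on log2(FPKM + 1), with or without a filter, and 0.007348 with limma on log2(FPKM + 0.1). Requiring at least 2-fold left 1746 genes higher and 915 lower, and 1 marker lower. Of the 30 other progenitor markers, 5 fell, in place of 8, with a minimum count of 50, with DESeq2 and with limma on log2(FPKM + 0.1), and 5 to 8 when 1 library was left out, and the cause was not tested. The fit with a replicate block gave 5120 genes higher and 5118 lower, 5 markers higher and 3 lower, and changed no call of a marker. Libraries of like number had correlations of -0.02, 0.11 and -0.01 in their deviations from the group means. Not every library correlated best with its own number. Such values cannot tell whether libraries of like number share a source. Depth limits Lepr and the monolayer value of Cd200 most, at means of 72.7 and 41.3 reads in the lower group. Counts over the other lists stayed within 1.5 times of their values in 672 cases and moved further in 42. The order by FPKM recomputed from CPM and the implied lengths is no separate check, since those lengths come from the same FPKM values.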
